A study of Mus musculus with 6 samples.

Results

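The genes described here are 10 markers of the non-neuronal cells of the brain, measured in neurons that had been picked by hand from the mouse visual cortex. They are the astrocyte markers Gfap, Gja1 and Clu, the oligodendrocyte markers Mbp, Cnp and Ugt8a, the microglia markers Aif1, C1qc and Fcer1g, and the endothelial marker Pecam1. They were chosen by symbol as known cell type markers, with earlier results of these data known. Each had a single transcript cluster (the probes of 1 transcribed region, summarised to 1 value) with that symbol alone in the platform annotation. All 10 were measured, among 14859 named genes in all.

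The labels describe m-Citrin-fluorescent star pyramid neurons, which are glutamatergic cells of layer 4, taken from mice at postnatal day 14. All groups share a monocular deprivation by tetrodotoxin (TTX), a sodium channel blocker that silences an eye, with a first injection on postnatal day 12 or 13 and another on postnatal day 13 or 14. The deprived group is 3 arrays of neurons from the deprived hemisphere and the non-deprived group is 3 arrays of neurons from the non-deprived hemisphere, so the non-deprived arrays also come from mice with TTX in an eye, and no untreated animal is in the data. Strain, sex, the driver of the m-Citrin label and the number of animals or cells behind an array are not stated in the labels. The letter after the replicate number in the labels is l on the non-deprived and r on the deprived arrays, so side, if that is what it marks, and deprivation cannot be told apart. Between 0.3 and 1 ng of total RNA went into a T7 amplification of 2 rounds before hybridisation. No label says that the 3 samples of a group come from separate animals, so p-values cover the spread among these samples alone, and part of it may be technical. Whether arrays of the 2 groups with the same replicate number come from the same animal is not stated either. In such bulk samples more cells of a type and more RNA per cell cannot be told apart.

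A neuron picked with a pipette from dissociated tissue can carry other cells, or fragments of them, along. Astrocytes wrap synapses and vessels and take up glutamate; oligodendrocytes wrap axons in myelin, which in the mouse cortex is only beginning to form in the second postnatal week; microglia are the resident immune cells and produce most of the complement C1q of the brain; endothelial cells line the vessels. Genes used mainly by these cells are therefore a usual measure of the purity of sorted neurons. The specificity of such markers differs. Clu is also transcribed in some neurons, and the Mbp locus also gives the golli transcripts, which are made in neurons and immune cells.

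Values are log2 expression values as deposited. The table has no detection call, so 834 olfactory, vomeronasal and taste receptor genes, which cortical neurons are not known to use, served as a description of the values read where little transcript should be present. Their 95th percentile was 5.37, 5.49 and 5.58 on deprived arrays 1 to 3 and 5.43, 5.71 and 5.57 on non-deprived arrays 1 to 3. It is called the receptor level here. Probes differ in how strongly they bind, so a value above or below this level is a position among such readings and does not give the abundance of one gene relative to another, or show that a transcript is absent. A pair of arrays, the second and the third of the non-deprived group, differed from the rest of the series: 40.4% and 44.7% of all named genes were above the receptor level there, compared with 52.8% to 54.8% on the deprived arrays and 55.6% on non-deprived array 1.

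On every array most of the markers read below the receptor level, but in the upper part of the range of the receptors. Each marker was above at least 70.1% of the receptor genes on every array. The median of the receptor genes was between 2.94 (deprived array 1) and 3.24 (non-deprived array 2). Of the 10 genes, 4, 2 and 3 were above the receptor level on deprived arrays 1, 2 and 3, and 3, 1 and 1 on non-deprived arrays 1, 2 and 3. By array, 40.4% to 55.6% of all genes were above this level. Clu was above it on all 6 arrays. Mbp and Cnp were above it on the same 3 arrays, deprived arrays 1 and 3 and non-deprived array 1, and Aif1 on deprived arrays 1 and 2. Gfap, Gja1, Ugt8a, C1qc, Fcer1g and Pecam1 were above it on 0 of 6 arrays, although Gja1 on deprived array 1 was just short of it (5.366 for Gja1 and 5.368 for the level).

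**Figure D1:**
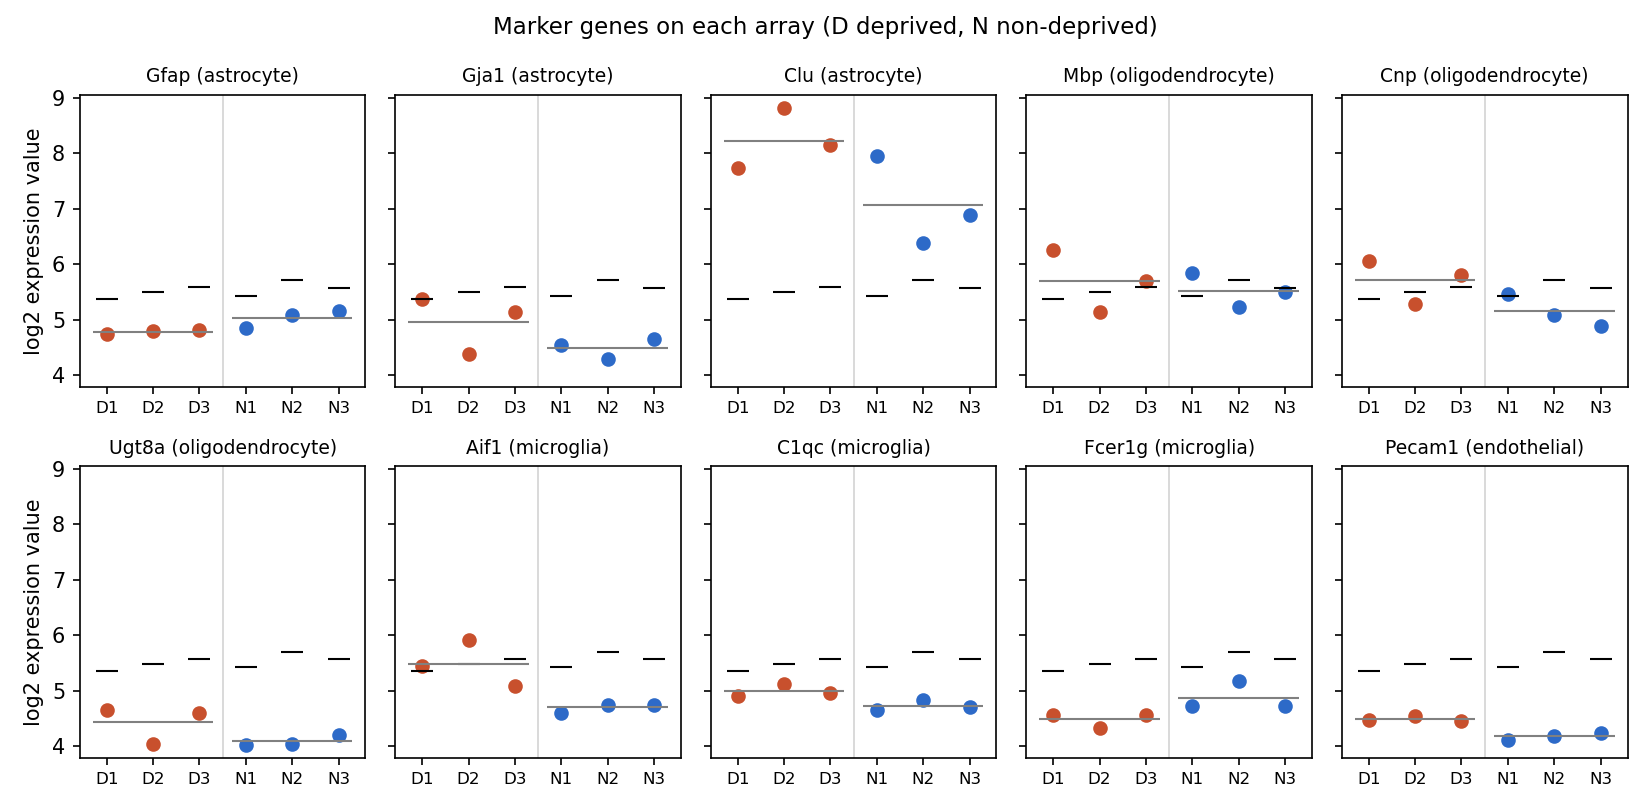
Log2 expression value (vertical axis) of the 10 marker genes on deprived arrays 1 to 3 (D1 to D3, red) and non-deprived arrays 1 to 3 (N1 to N3, blue), 1 panel per gene. Grey lines are group means and black dashes the 95th percentile of 834 receptor genes on that array; Clu lies above the dashes on all 6 arrays, and 6 of the genes lie below them on all 6.

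The label of the sort was set against neuronal genes. Of 9 measured pan-neuronal genes, 9 were above the receptor level on each of the 6 arrays. Snap25, a synaptic vesicle fusion protein, was at 11.94, 11.88 and 11.93 on the deprived arrays and at 11.77, 11.61 and 12.07 on the non-deprived arrays. Slc17a7, the vesicular glutamate transporter of cortical excitatory neurons, was at 9.92, 10.20 and 10.35 on the deprived arrays and at 9.44, 8.92 and 9.04 on the non-deprived arrays. Rorb, a transcription factor of layer 4, was at 8.41, 8.14 and 7.77 on the deprived arrays and at 7.70, 8.57 and 6.83 on the non-deprived arrays. Snap25, Slc17a7 and Rorb were above the receptor level on every array. Of 9 measured excitatory neuron genes, 8, 7 and 8 were above it on deprived arrays 1 to 3 and 8, 6 and 6 on non-deprived arrays 1 to 3. Of all genes, 52.8% to 54.8% were above it on the deprived arrays, and 55.6%, 40.4% and 44.7% on non-deprived arrays 1 to 3. Markers of inhibitory neurons were not confined to low readings. Gad1, an enzyme of GABA synthesis, was at 7.48, 7.04 and 7.38 on the deprived arrays and at 7.78, 5.68 and 6.43 on the non-deprived arrays. Sst, the somatostatin precursor of a class of interneurons, chosen after its values were seen, was at 10.08, 11.59 and 11.18 on the deprived arrays and at 11.36, 11.34 and 10.46 on the non-deprived arrays. Of 9 measured interneuron genes, 8 were above the receptor level on each deprived array, and 8, 5 and 7 on non-deprived arrays 1 to 3. These counts were close to those of the excitatory list. In each of the 2 lists, 5 of 9 genes were above the level on all 6 arrays and 1 on 0 arrays.

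Deprived and non-deprived hemispheres were compared to ask whether the content of non-neuronal markers differed between the groups. None of the 10 genes passed the test (0 of 10 at an adjusted p under 0.05 by limma, Benjamini-Hochberg over 14859 genes), where 0% of all genes passed. At an unadjusted p under 0.05 there were 2 of the 10, Aif1 and Pecam1, and 5.22% of all genes. Both markers were higher in the deprived arrays, as were 3.81% of all genes at that threshold, while 1.41% were lower. With 1 array left out at a time this count ran between 1 and 4, and was 4 without deprived array 2. It was 0 without non-deprived arrays 2 and 3. Pecam1 missed this threshold with any 1 array left out, with the replicate block, after quantile normalization, after median centring, over every cluster and without the variance trend. The deprived mean was the higher one in 8 of the 10 markers and in 56.3% of all genes, and the median log2 difference, deprived minus non-deprived, was 0.33 over the markers and 0.05 over all genes. Without deprived array 1, or without non-deprived arrays 2 and 3 together, 7 of the 10 were higher. The adjusted p was 0.856 for 9 of the genes and 0.948 for Mbp. Since the markers were chosen with earlier results of these data known, their counts beside those of all genes are descriptions and no test of the list.

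In 5 of the 10 markers the 2 groups held separate ranges of values, which was so for 10.3% of all genes. This count too is a description, since the markers were chosen with earlier results known. Aif1, C1qc and Pecam1 were higher on all 3 deprived arrays (6.30% of all genes), and Gfap and Fcer1g lower on all 3 (4.03%). Microglia markers held both kinds, Fcer1g being lower and Aif1 and C1qc higher. After quantile normalization 623 of all genes were higher and 936 lower on all 3 deprived arrays, and after median centring 724 and 969, compared with 936 and 599 in the values as deposited. The median difference of all genes was -0.04 after quantile normalization and -0.05 after median centring. The separation of C1qc was lost after quantile normalization and after median centring of the arrays, and that of Gfap after median centring. Aif1, Pecam1 and Fcer1g did not overlap under either scaling.

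**Figure D2:**
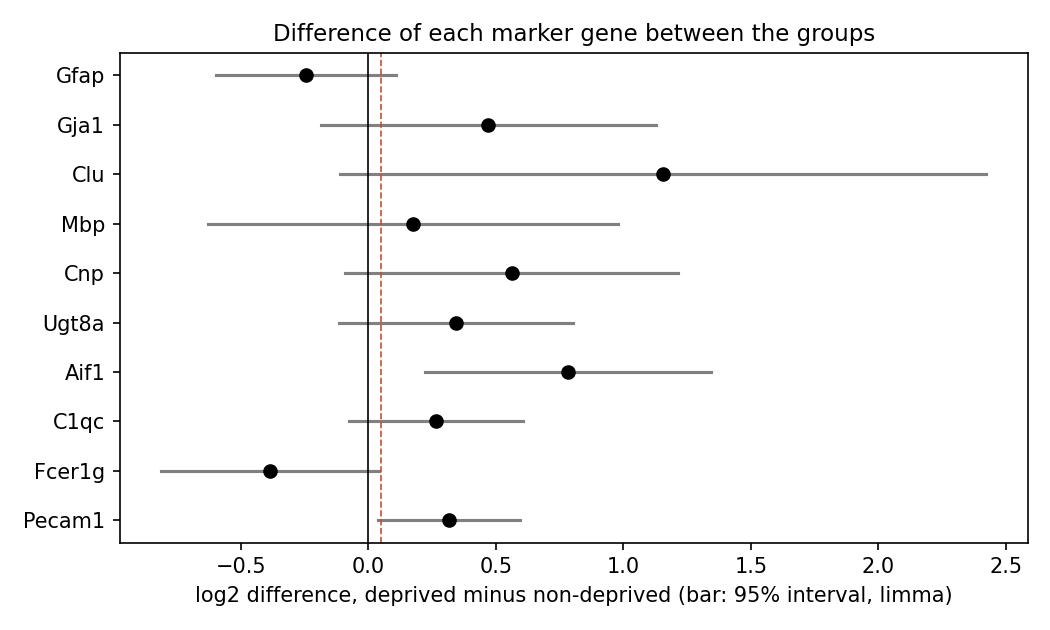
Log2 difference, deprived minus non-deprived (horizontal axis), for the 10 marker genes, with 95% intervals from limma as bars; the dashed line is the median difference of all genes, 0.05. The intervals of Aif1 and Pecam1 lie above 0, and the other 8 span 0.

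Among astrocyte markers, Gfap, the intermediate filament of reactive and fibrous astrocytes (transcript cluster 6791641), was at 4.75, 4.79 and 4.81 on deprived arrays 1 to 3 and at 4.85, 5.08 and 5.15 on non-deprived arrays 1 to 3. All 3 deprived values were below the lowest non-deprived value, by a narrow margin. Deprived arrays averaged 4.78 ± 0.03 and non-deprived arrays 5.03 ± 0.16 (SD, n = 3 each), a log2 difference of -0.24 (95% interval -0.60 to 0.11). Without non-deprived arrays 2 and 3 the difference was -0.07. Gfap was above 86.9% to 91.2% of the receptor genes, depending on the array.

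Gja1, the gap junction protein connexin 43 (cluster 6768014), was at 5.37, 4.39 and 5.15 on deprived arrays 1 to 3 and at 4.54, 4.29 and 4.66 on non-deprived arrays 1 to 3. Deprived arrays 1 and 3 were above all non-deprived arrays, and deprived array 2 lay among them. The log2 difference was 0.47 ± 0.27 (SE), and leaving out 1 array at a time gave 0.27 without deprived array 1 and 0.76 without deprived array 2.

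Clu, clusterin, a secreted chaperone and apolipoprotein (cluster 6819887), was at 7.73, 8.81 and 8.14 on deprived arrays 1 to 3 and at 7.95, 6.37 and 6.89 on non-deprived arrays 1 to 3. Non-deprived array 1 lay within the deprived range, and the other 2 non-deprived arrays below it. Deprived arrays averaged 8.23 ± 0.54 and non-deprived arrays 7.07 ± 0.80 (SD, n = 3 each), a log2 difference of 1.16 (95% interval -0.11 to 2.42). This is the widest interval among the 10 genes. The difference was 0.81 to 1.59 with 1 array left out at a time, and 0.28 without non-deprived arrays 2 and 3, which had the fewest genes above the receptor level. The part of that shortfall in the difference was not tested. Clu exceeded at least 98.3% of the receptor genes on every array. Its order of arrays was not that of Gja1: Clu was highest on deprived array 2, where Gja1 had its lowest deprived value.

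Oligodendrocyte markers were each highest on deprived array 1 and differed in which array was lowest. Mbp, myelin basic protein (cluster 6862586), was at 6.26, 5.13 and 5.70 on deprived arrays 1 to 3 and at 5.85, 5.23 and 5.50 on non-deprived arrays 1 to 3. The groups overlapped fully, since deprived arrays 1 and 2 held the highest and the lowest value of all 6. The log2 difference was 0.17 (95% interval -0.63 to 0.98), and its sign turned when deprived array 1 was dropped (-0.11), and when non-deprived arrays 2 and 3 were (-0.15).

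Cnp, the myelin enzyme 2',3'-cyclic nucleotide 3'-phosphodiesterase (cluster 6784205), was at 6.06, 5.28 and 5.80 on deprived arrays 1 to 3 and at 5.47, 5.09 and 4.89 on non-deprived arrays 1 to 3. Deprived arrays 1 and 3 were above all non-deprived arrays, and deprived array 2 lay between non-deprived arrays 1 and 2. The log2 difference was 0.56 ± 0.27 (SE; 95% interval -0.09 to 1.21), and 0.24 without non-deprived arrays 2 and 3. Ugt8a, which makes the myelin lipid galactosylceramide (cluster 6909083), was at 4.66, 4.05 and 4.60 on deprived arrays 1 to 3 and at 4.03, 4.04 and 4.21 on non-deprived arrays 1 to 3. Here too deprived arrays 1 and 3 were the highest of all 6 and deprived array 2 lay among the non-deprived values. The log2 difference was 0.34 ± 0.19 (SE), and 0.23 without deprived array 1 and 0.54 without deprived array 2. All 3 oligodendrocyte markers were highest on deprived array 1, as were 13.6% of all genes.

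Microglia markers did not move one way. Aif1, the calcium-binding protein Iba1 (cluster 6855084), was at 5.44, 5.92 and 5.10 on deprived arrays 1 to 3 and at 4.61, 4.75 and 4.76 on non-deprived arrays 1 to 3. The non-deprived arrays lay close together and every deprived array was above them, deprived array 2 the most. Deprived arrays averaged 5.49 ± 0.41 and non-deprived arrays 4.70 ± 0.08 (SD, n = 3 each), a log2 difference of 0.78 (95% interval 0.22 to 1.34), unadjusted p = 0.0136 in limma (adjusted p = 0.856). Leaving out each array in turn gave 0.57 to 0.98.

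C1qc, a chain of complement C1q (cluster 6926166), was at 4.91, 5.12 and 4.97 on deprived arrays 1 to 3 and at 4.65, 4.84 and 4.71 on non-deprived arrays 1 to 3. The lowest deprived value exceeded the highest non-deprived value by little, and the log2 difference was 0.26 ± 0.14 (SE). Fcer1g, the signalling chain shared by Fc receptors (cluster 6764049), was at 4.57, 4.34 and 4.57 on deprived arrays 1 to 3 and at 4.73, 5.18 and 4.72 on non-deprived arrays 1 to 3. All deprived values were below the non-deprived ones, and non-deprived array 2 was the highest. The log2 difference was -0.39 ± 0.18 (SE; 95% interval -0.81 to 0.04), and -0.23 when non-deprived array 2 was left out.

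Pecam1, the endothelial adhesion molecule CD31 (cluster 6791960), was at 4.47, 4.55 and 4.46 on deprived arrays 1 to 3 and at 4.12, 4.19 and 4.24 on non-deprived arrays 1 to 3. Every deprived array was above every non-deprived array, with a narrow spread in each group. Deprived arrays averaged 4.50 ± 0.05 and non-deprived arrays 4.18 ± 0.06 (SD, n = 3 each), a log2 difference of 0.32 (95% interval 0.04 to 0.60), unadjusted p = 0.0324 in limma (adjusted p = 0.856). Leaving out each array in turn gave 0.28 to 0.34. Its values were above 73.6% to 84.3% of the receptor genes and above 18.2% to 26.2% of all named genes.

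Further markers of the same cell classes were listed by name and read from the same fit. They were 15 further astrocyte genes, 14 of the oligodendrocyte lineage, 14 of microglia and 14 of endothelial and mural (vessel wall) cells. Of these, 0 passed at an adjusted p under 0.05 in limma, where 0% of all genes passed. At an unadjusted p under 0.05 there was 1 gene in all (the endothelial sialomucin Emcn), compared with 5.22% of all genes.

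The further astrocyte genes were higher in the deprived mean in 11 of 15, with a median log2 difference of 0.17 (all genes 0.05). The split was 7 of 15 after quantile normalization, 8 of 15 after median centring and 6 of 15 without deprived array 1, where the median was -0.10; the median was 0.04 without non-deprived array 3. Deprived array 1 was the array on which 7 of the 15 were highest (46.7%, against 13.6% of all genes). There 13 of the 15 were above the receptor level (86.7%, against 54.8% of all genes). On deprived arrays 2 and 3 it was 7 and 9 (46.7% and 60%, against 52.8% and 53.2%). On non-deprived arrays 1 to 3 it was 9, 6 and 6 (60%, 40% and 40%, against 55.6%, 40.4% and 44.7%), so these 5 arrays were near the share of all genes. Slc1a3, the glutamate transporter GLAST and the gene of this list with the smallest p, was at 6.04, 4.47 and 4.93 on deprived arrays 1 to 3 and at 4.65, 4.97 and 4.26 on non-deprived arrays 1 to 3. Deprived array 1 alone stood clear of the rest. The same array was the highest for Aldh1l1, a folate enzyme of astrocytes, named after its values were seen, at 6.665, 4.996 and 4.944 on deprived arrays 1 to 3 and at 5.23, 5.18 and 5.09 on non-deprived arrays 1 to 3. Atp1b2, a sodium pump subunit, was also highest on deprived array 1, at 10.77 (mean 10.15 on deprived and 9.96 on non-deprived arrays). S100b, a calcium-binding protein, instead had its lowest value of 4.19 there, and so did the marker Gfap (4.75). Clu, at 7.73 there, was higher on deprived arrays 2 and 3 and on non-deprived array 1. Of the 15 further genes, 11 exceeded their mean over the other arrays on deprived array 1, as did 6730 of all 14859 genes.

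The markers Mbp, Cnp and Ugt8a and the further oligodendrocyte list, which holds other myelin genes as well as lineage genes, mostly peaked on different arrays. Myelin genes of the further list were themselves split (examples chosen after their values were seen). Mal was highest on deprived array 1 (5.76), whereas Mag (4.75) and Cldn11 (5.28) had their lowest values there. Of the 14 further genes, 1 was highest on deprived array 1 (7.1%, against 13.6% of all genes) and 8 on non-deprived array 2 (57.1%, against 20.6%). On deprived array 1, 5 of the 14 exceeded their mean over the other arrays, as did 6730 of all 14859 genes. For Mbp, Cnp and Ugt8a this was so for 3 of 3. The deprived mean was higher in 6 of 14 (median -0.04), in 3 of 14 after quantile normalization and in 2 of 14 after median centring. The balance turned with arrays left out: it was 9 of 14 (median 0.07) without non-deprived array 2, 8 of 14 without deprived array 1 or without deprived array 2, and 7 of 14 without non-deprived arrays 2 and 3. Olig1, a transcription factor of the lineage, averaged 6.68 on deprived and 6.73 on non-deprived arrays. Ermn, a late myelin protein, averaged 2.55 on deprived and 2.47 on non-deprived arrays. Enpp6, an enzyme of newly formed oligodendrocytes and the gene of this list with the smallest p, differed by -0.34 (unadjusted p = 0.156 in limma).

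**Figure D3:**
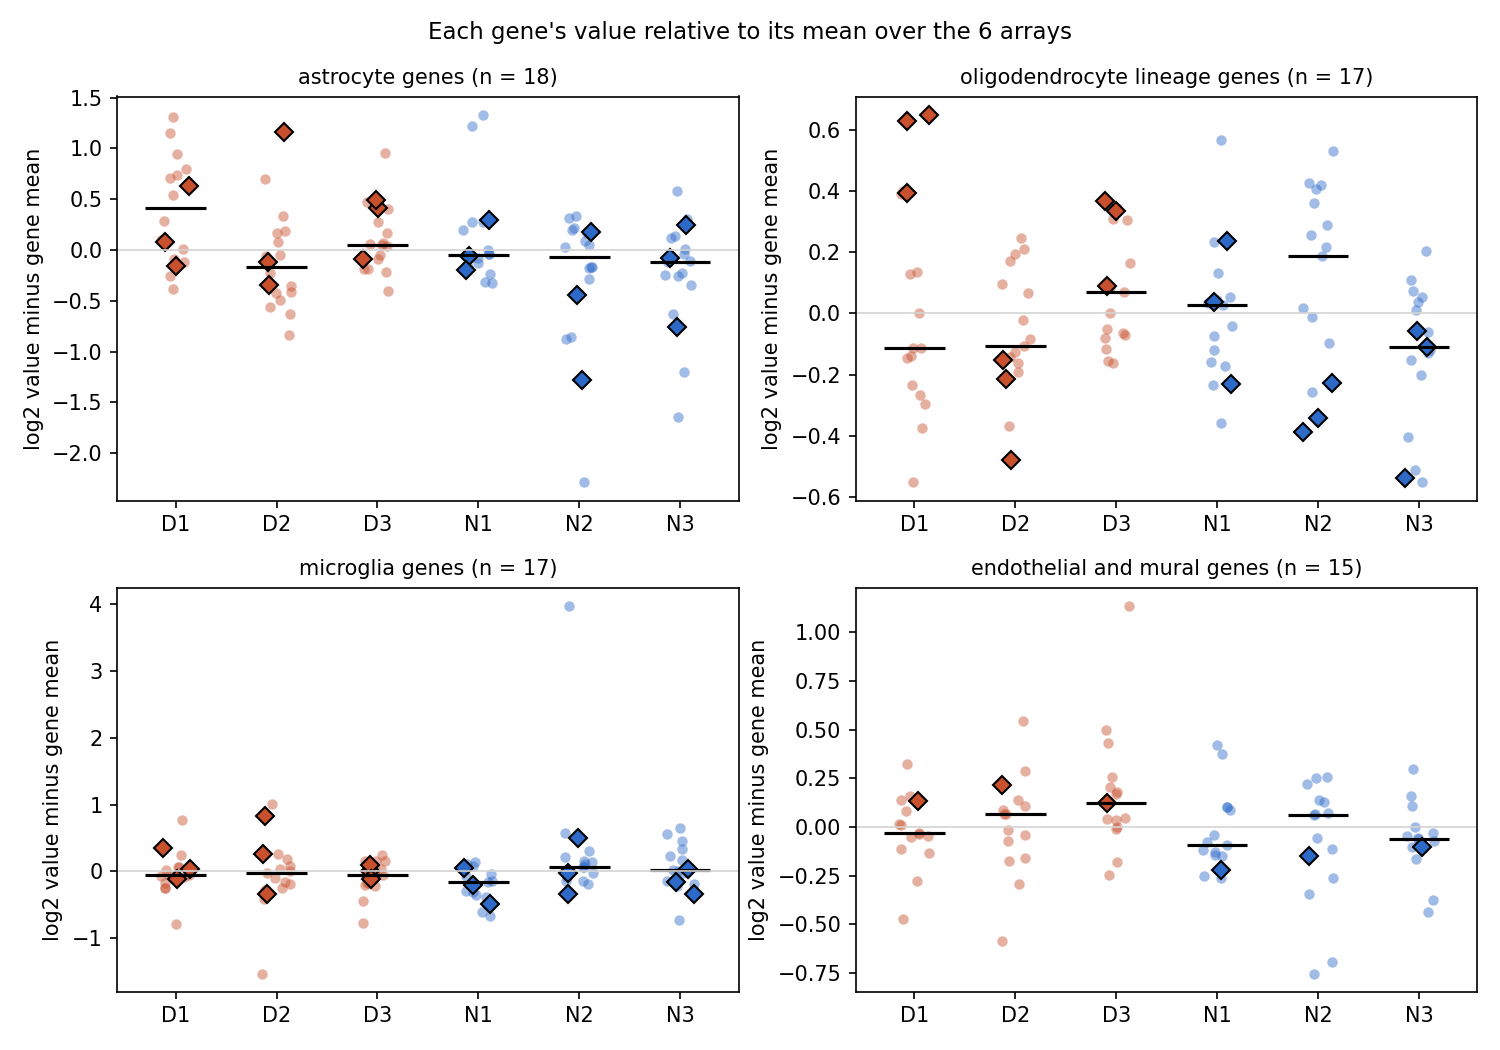
Log2 value of each gene minus that gene's mean over the 6 arrays (vertical axis), on deprived arrays 1 to 3 (D1 to D3, red) and non-deprived arrays 1 to 3 (N1 to N3, blue). Diamonds are the 10 markers, circles the further genes of each class and black lines the medians of all genes of a panel. On deprived array 1 the 3 oligodendrocyte markers lie above 0 and 9 of the 14 further oligodendrocyte genes below it. Of all 14859 named genes, 6730 exceeded their mean over the other arrays there. The point at the top of the microglia panel is Cd68 on non-deprived array 2.

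The further microglia genes did not follow Aif1. The deprived mean was higher in 5 of 14 (median -0.14), in 3 of 14 after quantile normalization and after median centring, and in 9 of 14 without non-deprived arrays 2 and 3 (median 0.10). C1qa and C1qb, the other chains of C1q, chosen after their values were seen, differed by -0.15 and -0.24 where C1qc differed by 0.26, each with an interval that spans 0. Of the 14 genes, 4, 2 and 2 were above the receptor level on deprived arrays 1 to 3 and 2, 3 and 2 on non-deprived arrays 1 to 3. That is 28.6% or less on each array, against 40.4% to 55.6% of all genes. Of the 14, 10 were above the level on 0 arrays, a count that was not made for all genes. Cx3cr1, the fractalkine receptor, averaged 6.15 on deprived and 6.40 on non-deprived arrays. Ptprc, the leukocyte antigen CD45, averaged 4.05 on deprived and 3.65 on non-deprived arrays. Deprived array 2 alone was high for Ptprc (4.86), with 3.60 and 3.68 on deprived arrays 1 and 3. Cd68, a lysosomal protein of phagocytes and the gene of this list with the smallest p, was at 5.68, 4.41 and 5.17 on deprived arrays 1 to 3 and at 5.27, 9.92 and 5.20 on non-deprived arrays 1 to 3. Non-deprived array 2 alone was high for Cd68 (difference -1.71, unadjusted p = 0.220 in limma). Fcer1g was highest on the same array, though below the receptor level there, while Aif1 and C1qc were highest on deprived array 2. Of the 14 further genes, 5 were highest on non-deprived array 2 (35.7%, against 20.6% of all genes) and 4 on non-deprived array 3 (28.6%, against 14.6%).

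Endothelial and mural genes were seldom above the receptor level. The deprived mean was higher in 10 of 14 (median 0.02), but in 7 of 14 after quantile normalization, in 4 of 14 after median centring and in 7 to 9 of 14 with 1 array left out. Emcn, the gene of this list with the smallest p, was at 3.44, 3.71 and 3.63 on deprived arrays 1 to 3 and at 3.28, 3.16 and 3.32 on non-deprived arrays 1 to 3. These values are below the receptor level on every array (difference 0.34, unadjusted p = 0.0346, adjusted p = 0.856 in limma). All 3 deprived values were higher, as for Pecam1 and 6.30% of all genes. With the replicate block, after median centring, over every cluster or without the variance trend, 0 genes of this list had an unadjusted p under 0.05 in limma. The receptors of vascular growth factors Kdr and Flt1, named after their values were seen, differed by 0.03 and 0.02. Of the 14 genes, 3, 2 and 3 were above the receptor level on deprived arrays 1 to 3 and 2, 0 and 1 on non-deprived arrays 1 to 3. That is 21.4% or less on each array, against 40.4% to 55.6% of all genes. Slc2a1, the glucose transporter GLUT1 of brain vessels, averaged 6.76 on deprived and 5.96 on non-deprived arrays. The groups overlapped, since deprived array 1 (5.885) was below non-deprived arrays 1 (6.28) and 3 (5.92). Slco1a4, a transporter of the blood-brain barrier, averaged 2.89 on deprived and 3.03 on non-deprived arrays.

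**Figure D4:**
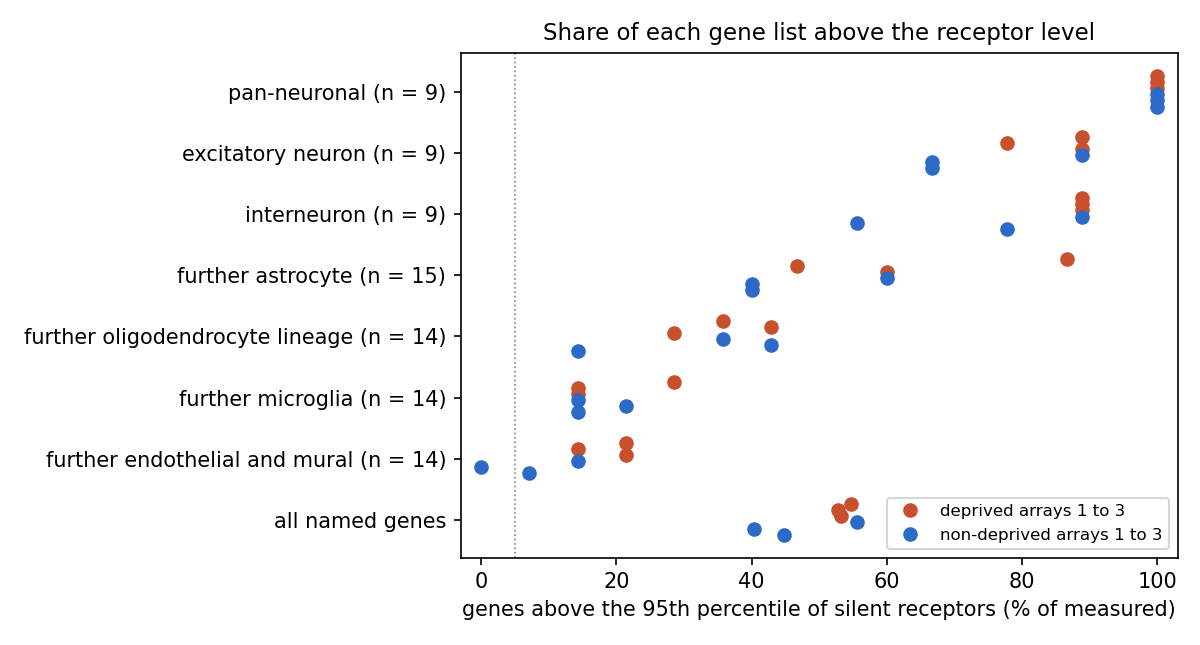
Percentage of the measured genes of 7 lists, and of all named genes, above the 95th percentile of 834 receptor genes on the same array (horizontal axis), for deprived (red) and non-deprived (blue) arrays 1 to 3, drawn from top to bottom within a list. The dotted line marks 5%, the share of the receptors themselves. Pan-neuronal genes lie at 100% on every array, further microglia and further endothelial genes at 28.6% or less, and all named genes at 40.4% to 55.6%. The share of the further astrocyte genes is largest on deprived array 1.

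For the marker of each class with the widest range over the 6 arrays, the genes most like it were those with the smallest root mean square difference between mean-centred log2 profiles, among 14358 genes. For Clu they were Pip4k2b (0.142) and Sh3rf1 (0.148), with 97 genes under 0.3. For Cnp they were Coq4 (0.101) and Taf5 (0.104), with 623 genes under 0.3. For Aif1 they were Lrrc49 (0.133) and Cuta (0.135), with 192 genes under 0.3. For Pecam1, which varied little, they were Srebf1 (0.0556) and Gmnn (0.0561), and 5037 genes lay under 0.3. None of these 8 genes is on the lists of cell type markers, and with 6 arrays such profiles are shared by many genes.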

How the data were processed

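The authors deposited a summarised log2 value for each transcript cluster on each array; the values run between 0.584 and 13.64, from which the log2 scale was inferred. How the authors corrected background, normalized and summarised is not given in the sources used here. Build mm9 appears in the submitters' processing notes. Values were used without further scaling. Of 23331 clusters, 14995 had 1 gene symbol in the platform annotation, 1019 several and 7317 none. For 135 genes with several clusters the one with the highest mean was used, which left 14859 genes; each of the 10 markers had 1 cluster. Groups were compared with limma 3.58.1 in R 4.3.3 (lmFit, eBayes with a variance trend, group as the sole term), two-sided, with Benjamini-Hochberg adjustment over all genes at 0.05. The fit was first run on simulated data with planted changes and independent noise for each gene. That check required only that the mean estimate lay near the planted change, and it held no effect shared by the genes of an array. Precision is limited by the number of arrays. Alternatives were other scalings, filters, cluster rules and variance settings, a replicate block and left-out arrays.

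The receptor level is the 95th percentile, on each array, of 834 genes with symbols of the Olfr, Vmn, V1r, V2r and Tas families. The markers and lists were chosen with earlier results of these data known. Genes named are the 10 markers, Slc17a7, Rorb, Snap25 and Gad1, in each further list those with the highest mean, the lowest mean and the smallest p, and the likest profiles without provisional symbols; others are said to be chosen after their values were seen. Of the neuronal lists, 0 genes passed. The excitatory list had 8 of 9 genes higher in the deprived mean (median 0.40), the pan-neuronal list 6 of 9 (0.13) and the interneuron list 5 of 9 (0.46). Of all genes 56.3% were higher (median 0.05), and among all genes at or above the median mean level the median was 0.23. At or above that level lay 8 excitatory, 9 pan-neuronal and 8 interneuron genes. The pan-neuronal list turned without non-deprived array 2 (3 of 9, median -0.03). The interneuron median was 0.10 without deprived array 2, 0.20 without non-deprived array 2, 0.17 without non-deprived array 3 and -0.38 without both of these, and the excitatory median 0.26 without non-deprived array 3.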

Additional observations from a re-analysis of the deposited data

How the results depend on the processing

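No marker, and no gene of the 14859, passed limma at an adjusted p under 0.05 in any alternative run; the lowest adjusted p of a marker was 0.294 (Clu, without non-deprived array 1) and the highest 1.000 (Mbp). Over the alternatives, 137 of 139 differences of single markers kept their sign. Mbp turned to -0.15 without non-deprived arrays 2 and 3, and leaving out each array in turn gave -0.11 to 0.46. The median over the markers was 0.32 after quantile normalization, 0.23 after median centring and 0.29 to 0.50 with 1 array left out. With genes below the median mean level left out it was 1.16, where Clu alone remained, and the median over all genes kept was 0.23. At the 25th percentile 8 markers remained, without Ugt8a and Pecam1. Correlations of deviations from the group means were -0.05, -0.02 and -0.003 between same-numbered arrays of the 2 groups. Between differently numbered arrays they were -0.015 to 0.033. With 3 arrays per group such values cannot decide whether same-numbered arrays share an animal. The replicate block gave 0 calls, a median of 0.33 and 745 genes at an unadjusted p under 0.05 in limma, against 775 without it. The number of markers above the receptor level depended on its definition. At the 99th percentile it was 1 on deprived arrays 2 and 3, 1 on non-deprived array 1 and 0 on non-deprived array 2; against vomeronasal and taste receptors alone it was 3 on non-deprived arrays 2 and 3. Against these receptors Gja1 was above the level on deprived array 1 (5 of 10 markers there), Gfap on non-deprived array 3 and Fcer1g on non-deprived array 2.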
